A study of Homo sapiens with 9 samples.

Results

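Transcript usage was compared between HAL-01 leukemia cells with a disrupted MEF2C enhancer and control cells, as the share of each transcript in the counts of its own gene. The members are the 25709 transcripts that hold at least 5% of their gene's counts, summed over the 9 libraries, in genes with at least 500 such counts and at least 2 such transcripts. They belong to 8081 of the 62700 genes and are a small part of the 252835 transcripts in the deposited table. A further 3340 genes with at least 500 counts had a single transcript above 5% and are not members. Counts summed over all libraries chose the members, and no difference between groups was used.

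HAL-01 is a B-cell precursor acute lymphoblastic leukemia line with the t(17;19) translocation, which fuses TCF3 to HLF. All 9 libraries came from HAL-01 cells that stably express Cas9 with GFP, collected on day 13 after delivery of a guide RNA. In 6 libraries the guide was sgRNA_96 or sgRNA_97, 3 libraries each, with the labelled genotype MEF2C Enhancer KO. In 3 libraries it was the scrambled guide SCR1, labelled Ctr_SCR. Replicates carry the numbers 1, 3 and 4 in each group. Nothing in the labels says that they were separate cultures, so p-values measure only the spread between these samples. The share of edited cells is not given in the sources used here. RNA from all cells of a culture was pooled, and a transcript lost from every cell cannot be told apart from fewer cells that carry it.

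Most human genes give rise to several transcripts through alternative start sites, alternative exons, introns that stay in the mature RNA and alternative ends. Transcripts that keep an intron are often held in the nucleus or degraded, and genes of splicing regulators are known for adjusting their own level through such forms. Transcripts with an early stop codon are targets of nonsense-mediated decay. MEF2C itself is known for alternative exons in its transactivation region.

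The exons and splice sites that the results turn on are printed here, 5′ to 3′ on the strand of the gene, from the hg38 genome. Exon bases are in capitals and intron bases in lower case. For RPS24, a ribosomal protein of the small subunit, the 22-base exon close to its 3′ end is shown because its use separated the knockout from the control libraries. It lies in chr10:78040184-78040245 on the plus strand and opens with the stop codon of the transcript that includes it.
RPS24 22-base exon: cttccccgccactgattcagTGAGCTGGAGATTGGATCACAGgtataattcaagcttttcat
For MEF2C, a small cassette exon of 24 bases (chr5:88730191-88730254, minus strand) and an optional segment of 96 bases known as the gamma region (chr5:88722830-88722925, minus strand) are shown because they distinguish its coding forms. The gamma segment is printed without flanks.
MEF2C small cassette exon: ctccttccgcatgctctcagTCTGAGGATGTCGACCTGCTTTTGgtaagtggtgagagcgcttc
MEF2C gamma segment: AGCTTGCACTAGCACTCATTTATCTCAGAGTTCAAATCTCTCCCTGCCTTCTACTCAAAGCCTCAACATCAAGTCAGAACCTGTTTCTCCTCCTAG
For the retained introns, the splice sites of the single introns kept by ARGLU1-204 (2300 bases, chr13:106557132-106559431, minus strand) and DDX39B-215 (1574 bases, chr6:31532912-31534485, minus strand) are shown with 10 exon bases each.
ARGLU1-204 5′ splice site: AGCTAGAGAGgtaacgctcggtcgtttgga
ARGLU1-204 3′ splice site: taacatatcctcccctttagGAGGAAGAAC
DDX39B-215 5′ splice site: CATAGGAAAGgtaaagtggatgtaatcggg
DDX39B-215 3′ splice site: acccccttcctcccccccagCCAATGGAGA

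The libraries held 15212462 to 29777361 estimated counts. The knockout libraries lay between 15212462 and 20565658, and SCR1 replicates 1, 3 and 4 held 29777361, 17439072 and 21356387. Summed TPM (length-scaled abundance) of 8 B-cell precursor markers was 1804 to 1926 in every library. CD3D, CD3E, CD3G, HBB, HBA1 and HBA2 were at 0. Of the myeloid markers, CSF1R was at 8.80 to 14.5 TPM and MPO at 1.17 to 3.90 TPM. MEF2C was at 186 to 221 TPM in the knockout libraries and at 215 to 243 TPM in the SCR1 libraries, and 20.6% of the genes tested changed in total counts (edgeR adjusted p under 0.05).

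Member genes held 64.0% of all counts, and their member transcripts held 92.6% of the counts of these genes. The genes had 2 member transcripts in 3116 cases, 3 in 2276 cases and 4 or more in 2689 cases, up to 9. By annotated class, 16837 member transcripts are protein coding, 3639 are retained-intron transcripts, 2144 are targets of nonsense-mediated decay, and 1391 belong to protein-coding genes but have no defined coding sequence. Most of the remainder, 1600, are long noncoding RNAs.

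Single transcripts hardly passed the test. Of the 25709 transcripts, 1 differed in share between knockout and control, 0.00389% of those tested, at an adjusted p under 0.05 in edgeR's quasi-likelihood test. The test asks whether the counts of a transcript and the counts of the rest of its gene moved unequally, and returns a log2 odds ratio. At an unadjusted p under 0.05 there were 1578 transcripts, or 6.14%. The comparisons of each guide with SCR1, and of the guides with each other, gave 0 called transcripts (0% each), with 1264, 1348 and 813 at an unadjusted p under 0.05. With DESeq2 550 transcripts were called, 349 higher and 201 lower in the knockout. Per guide DESeq2 called 429 with sgRNA_96 and 529 with sgRNA_97, and it also called 315 between the guides, which both target the enhancer.

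The spread of shares among libraries of 1 group was wide. The median SD within groups was 5.24 percentage points and the median absolute difference between knockout and control was 2.81 points. A difference of at least 10 points was seen for 2765 transcripts and one of at least 20 points for 611. The 95% confidence interval of the odds ratio lay wholly between a 2-fold fall and a 2-fold rise for 34.1% of the transcripts. Of all members, 26.7% had a count of 0 in at least 1 library, and in 79.1% of these cases the gene itself had at least 100 counts in that library. The biological coefficient of variation was 0.0724 for gene totals and 0.857 for transcripts, and counts of single transcripts, tested as such, were called for 0.562%. For a transcript of median spread, a difference of a few points was therefore not detectable.

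The called transcript was TLK2-222, named after its values were seen because it was the only call. TLK2 encodes a Tousled-like kinase of chromatin assembly. TLK2-222 (chr17:62479206-62615444, plus strand, hg38 as for all coordinates given) is a 20-exon transcript of the nonsense-mediated decay class with an annotated coding sequence of 112 codons. Its share of TLK2 counts was 12.9%, 7.99% and 9.97% in the sgRNA_96 libraries and 10.2%, 10.97% and 5.30% in the sgRNA_97 libraries. It was 0 in all 3 SCR1 libraries, so the groups did not overlap. Against a floor of 3 counts over the control group, the share was at least 134-fold higher in the knockout (edgeR adjusted p 0.0203). TLK2-222 met the 5% minimum over all libraries, at 5.82%, only through the knockout libraries, so a difference had to be seen once it was a member. Total TLK2 counts were 961 to 1845 per library, and TLK2 itself showed a log2 fold change of 0.05. The adjusted p was 0.179 with the replicate number as a block, and it rose to between 0.0887 and 0.173 without 5 of the 6 knockout libraries in turn. The coding forms TLK2-202 and TLK2-213 held 61.3% and 12.4% of the counts in SCR1 against 55.3% and 19.3% in the knockout, and neither passed the test.

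Such on-and-off transcripts were rare and came in both directions. TLK2-222 was 1 of 6 member transcripts at 0 in all SCR1 libraries and above 0 in all knockout libraries. The others were NKIRAS1-209, SLC10A7-203, ATG10-208, DPEP1-201 and TCF4-284. The converse held for 4, PIGV-201, MRPS33-209, TIRAP-216 and WIZ-206. Each of these met the 5% minimum through 1 group alone, so a difference had to be seen once it was a member. The adjusted p values below carry this limit. Among all members, 1058 were at 0 in exactly 3 libraries and 401 at 0 in exactly 6, whichever the libraries were. The 6 and 4 are a small part of these. No excess over chance among the 84 arrangements of 6 and 3 libraries was shown. TCF4, a relative of TCF3, has 77077 counts over the 9 libraries, and TCF4-284 held between 3.15% and 20.2% of them in the knockout libraries (edgeR adjusted p 0.204). WIZ-206 held 8.69%, 28.8% and 20.9% of WIZ counts in the SCR1 libraries and 0 in the knockout (adjusted p 0.472).

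Taken by annotated class, the share of retained-intron transcripts was higher in the knockout. Summed over all member genes, it was 8.19%, 8.46% and 8.47% in the SCR1 libraries. It was 9.26%, 9.82% and 9.41% with sgRNA_96 and 9.13%, 9.97% and 9.29% with sgRNA_97. Every knockout library lay above every control library, and both guides gave similar values. The means were 9.48% ± 0.337 (SD, n = 6) and 8.38% ± 0.158 (SD, n = 3), a difference of 1.11 points (exact two-sided permutation test, p = 0.0119, adjusted p 0.0198 over 5 classes). This p is the smallest that the 84 arrangements of 6 and 3 libraries allow.

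The protein-coding class fell in share, with a difference of -1.52 points. Its share was 81.6% ± 0.157 (SD, n = 3) in SCR1 and 80.0% ± 0.495 (SD, n = 6) in the knockout, again without overlap (exact permutation test, adjusted p 0.0198). With each gene given the same weight, the differences were -0.936 points for this class and 0.851 points for the retained-intron class. Both then had an adjusted p of 0.0298 (exact permutation test). Transcripts of the nonsense-mediated decay class stayed at 5.06% in SCR1 and 5.07% in the knockout (difference 0.0167 points, exact permutation test, p = 0.369). Transcripts without a defined coding sequence were at 3.01% and 3.15% (exact permutation test, adjusted p 0.0446), and at an adjusted p of 0.134 when each gene was given the same weight. All remaining classes together were at 1.99% and 2.26% (exact permutation test, adjusted p 0.0198), and this direction turned with equal weight per gene, where the difference was -0.0111 points.

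**Figure D1:**
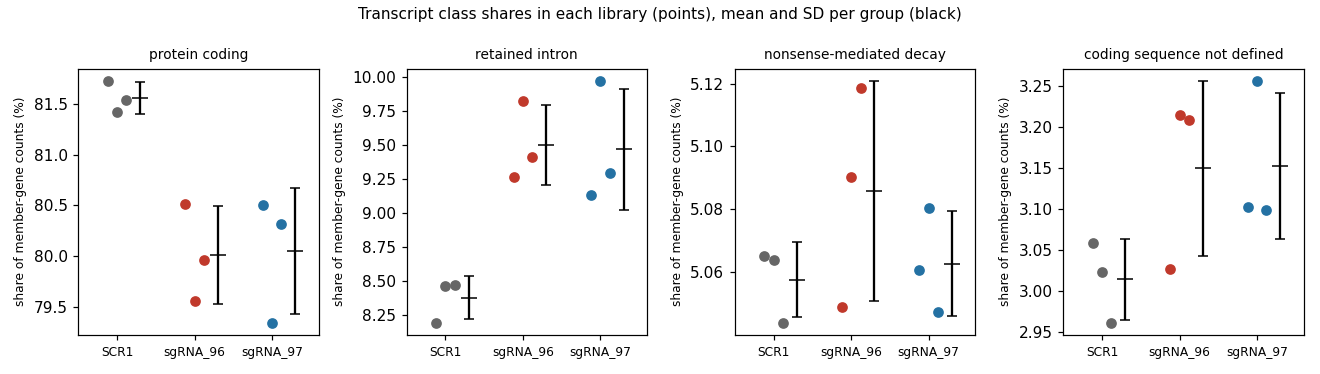
Share of 4 transcript classes in the counts of the member genes (percent, y axis, which does not start at 0) for each library (points) of SCR1, sgRNA_96 and sgRNA_97, with the mean and SD of each group in black. The retained-intron share of each knockout library, 9.13% to 9.97%, lies above the 3 SCR1 libraries, and the protein-coding share lies below them.

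The rise in retained-intron transcripts was spread over many genes and small in each. Among 3124 genes with this class and another, its share was higher in the knockout in 2426, or 77.7%, with a median difference of 1.91 points. Over all 11386 class shares within genes, 51.0% were higher and the median difference was 0.0971 points. No single gene passed the edgeR test on class shares (0% of those tested called). At an unadjusted p under 0.05, 482 genes had a higher and 15 a lower retained-intron share, while over all class shares 6.02% were higher and 5.01% lower. Groups did not overlap in 289 genes with a higher and 10 with a lower retained-intron share, or 9.25% and 0.320% of them, where 3.46% and 3.06% of all class shares did so.

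Other classes within genes differed in direction. The protein-coding share was higher in 32.5% of 4853 genes, with a median difference of -1.48 points. The nonsense-mediated decay share was higher in 986 of 1972 genes, with a median of -0.00329 points. Transcripts without a defined coding sequence moved the way of the retained introns, with a higher share in 58.2% of 1313 genes and a median of 0.573 points. At an unadjusted p under 0.05, 79 of these 1313 genes were higher and 18 lower, where 6.02% and 5.01% of all class shares were. The groups did not overlap in 42 and 14, or 3.20% and 1.07%, against 3.46% and 3.06% of all class shares. The higher side was thus not above that of all class shares. Each guide on its own gave the retained-intron pattern against the same SCR1 libraries. With sgRNA_96 77.5% of the genes were higher, with a median of 1.95 points, and with sgRNA_97 74.2%, with a median of 1.75 points.

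**Figure D2:**
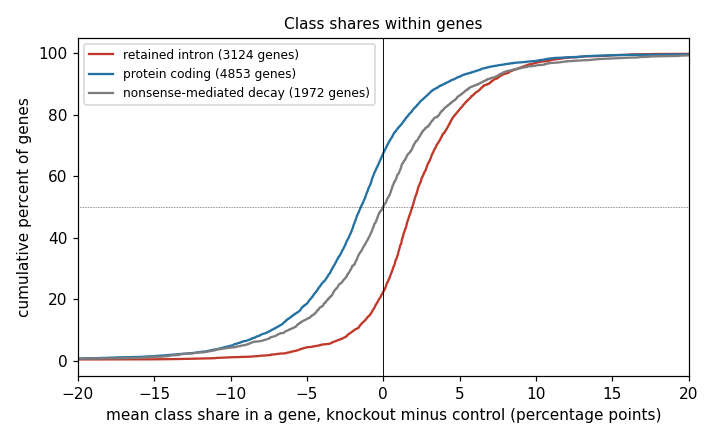
Cumulative percent of genes (y axis) against the difference of the mean class share within a gene, knockout minus control, in percentage points (x axis), for 3 classes. The curve of the retained-intron class crosses 50% at 1.91 points, that of the protein-coding class at -1.48 points, and that of the nonsense-mediated decay class close to 0.

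The class label covers different structures, and the shift was seen in each. Of the 3639 retained-intron members, 2045 span at least 1 whole intron of another transcript of their gene, and the other 1594 do not. The share was higher in the knockout for 75.0% of the first kind and 65.6% of the second, with medians of 1.56 and 0.967 points. The 3703 introns spanned have a median length of 326 bases and a median GC content of 55.2%, and 97.9% have GT-AG ends. Over all 25709 members, 51.2% were higher, with a median of 0.117 points.

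Among the 1160 transcripts that keep exactly 1 intron, longer introns went with a higher proportion of rising shares. In the shortest of 4 equal bins, of 40 to 181 bases, 64.4% were higher with a median of 0.819 points. In the following bins, up to 388, 933 and 44014 bases, 70.5%, 75.5% and 81.0% were higher, with medians of 1.40, 1.70 and 1.54 points. By GC content, 77.9%, 72.4%, 74.1% and 66.9% were higher from the lowest to the highest of 4 bins. The medians were 1.55, 1.27, 1.68 and 0.993 points. The lowest bin spanned 22.01% to 42.4% and the highest 61.4% to 83.8%. By the change of the gene's own total, 72.3% of all retained-intron members were higher in genes whose counts rose, 74.9% in genes whose counts fell and 70.1% in genes not called. These values describe the members and were not tested against each other.

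The mean annotated length of all transcripts of the member genes moved with the classes. Lengths were weighted by share within each gene and then averaged over genes. It was 3412, 3432 and 3429 bases in the SCR1 libraries and 3439 to 3454 bases in the knockout libraries. The means of 3424 ± 10.9 (SD, n = 3) and 3448 ± 5.17 (SD, n = 6) differed by 23.9 bases without overlap (exact permutation test, p = 0.0119). NEAT1, a nuclear noncoding RNA, was at 100.5 to 140.3 TPM in the knockout libraries and at 73.2 to 91.0 TPM in SCR1. MALAT1, another nuclear RNA, was at 76.0 to 150.9 TPM and 68.4 to 94.8 TPM, with overlap. The part of nuclear RNA content in the retained-intron share was not tested.

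In genes of splicing regulators the mean retained-intron share was higher in the knockout, though in many of them by no more than the spread between libraries. On 3 lists of splicing genes, 33 genes had a retained-intron class. Its mean share was above that of SCR1 in 33 of 33, against 77.7% of all 3124 genes with the class. The differences ran from 0.474 to 11.4 points with a median of 2.95 points, against 1.91 points over all 3124. At an unadjusted p under 0.05, 17 were higher, or 51.5% against 15.4% of all genes with the class, and none was lower. In 13, or 39.4%, the groups did not overlap and the share was higher, against 9.25% of all genes with the class. None passed the edgeR test after adjustment over all class shares. The genes of these lists that are described below were picked with their values in view.

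SR proteins bind exonic enhancers and promote exon inclusion. All 9 with a retained-intron class had a higher share, with a median of 3.3997 points. SRSF11 rose from 48.8%, 51.0% and 51.7% in the SCR1 libraries to between 53.4% and 59.5% in the knockout libraries. For SRSF9 the values were 9.73%, 13.005% and 11.9% against 15.1% to 16.4%. TRA2B, which controls its own splicing, was at 45.2%, 45.2% and 44.1% against 46.99% to 50.3%. Of the 9 genes, only in these 3 did the groups not overlap, and their adjusted p in edgeR was 0.202 to 0.348. The remaining SR genes overlapped, with differences such as 1.94 points in SRSF3 and 1.27 points in SRSF10.

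The hnRNP proteins bind nascent RNA and often oppose exon inclusion. All 9 with the class were higher, with a median of 2.62 points. HNRNPH1 was at 41.9%, 46.5% and 46.0% in SCR1 and at 46.8% to 55.5% in the knockout. HNRNPU, a scaffold protein of the nucleus, was at 14.1%, 15.4% and 13.7% against 17.0% to 23.1%. HNRNPA3 was at 4.83%, 4.20% and 4.16% against 5.89% to 7.23% (edgeR adjusted p 0.180). The groups did not overlap in any of these 3 genes, which are among 5 of the 9 without overlap. They overlapped in PTBP1, PTBP2, HNRNPL and HNRNPA2B1.

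Of the other splicing regulators, 15 of 15 were higher, with a median of 2.79 points. RBM39, a cofactor of the spliceosome, had the largest difference of the 33 genes. Its retained-intron share was 52.0%, 53.2% and 49.0% in the SCR1 libraries and 59.3% to 66.9% in the knockout libraries, or 51.4% ± 2.16 and 62.8% ± 2.79 (edgeR adjusted p 0.180). TIAL1 was at 35.03%, 33.5% and 31.9% against 36.5% to 40.8%. By contrast TIA1, its close relative, was at 9.92% and 10.4% on average, and CLK1 libraries of both groups overlapped between 51.3% and 55.5%.

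**Figure D3:**
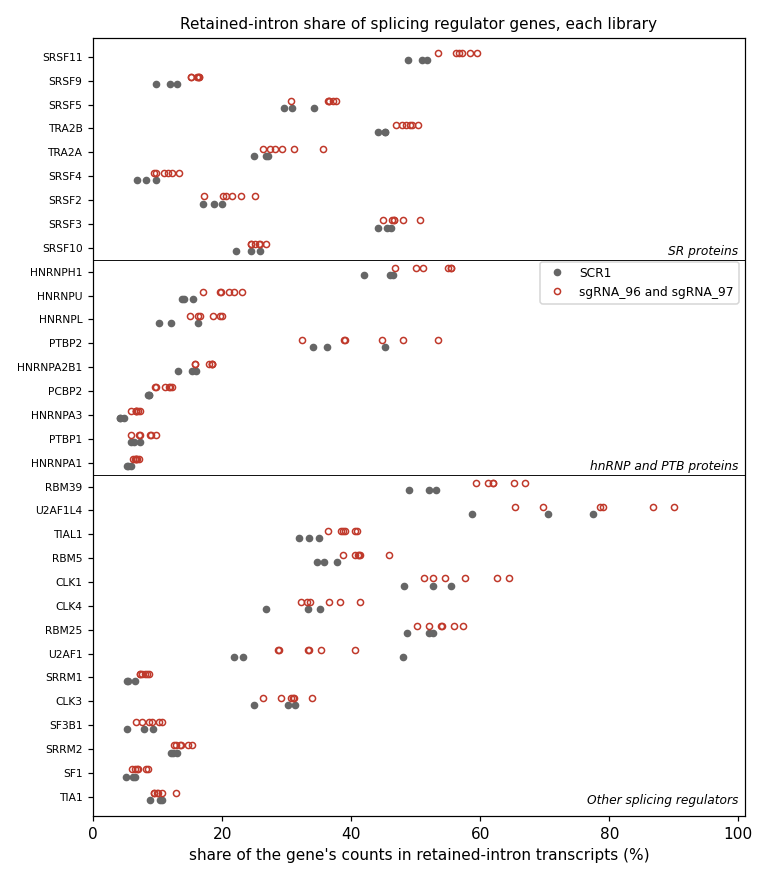
Share of retained-intron transcripts in the counts of splicing regulator genes (percent, x axis) in the 3 SCR1 libraries (filled grey) and the 6 knockout libraries (open red), in 3 lists. The open points are shifted to the right of the filled points in RBM39, HNRNPU and SRSF11, and overlap them in genes such as TIA1 and CLK3.

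The remaining lists were counted in the same way. The retained-intron share was higher in 4 of 5 genes of 3′ end processing, 3 of 4 of nonsense-mediated decay, 3 of 4 of MEF2 and its regulators and 6 of 8 B-lineage and stem cell transcription factors. It was higher in 2 of 4 surface antigens, 5 of 7 genes of apoptosis and p53, and 11 of 11 genes with well known isoform pairs, such as PKM, STAT3 and TPM1. Taken as single transcripts, 25.0% of the 48 transcripts of SR genes and 26.1% of the 88 of hnRNP genes had an unadjusted p under 0.05. For the other splicing regulators it was 15.7% of 102, for 3′ end processing 21.6% of 37, and for the transcription factors 12.2% of 90. On the remaining lists it was 4.44% to 8.96%, against the 6.14% of all members. The median absolute difference was 1.56 points for SR genes, 1.43 for hnRNP genes and 1.86 for the other splicing regulators. For 3′ end processing it was 1.80 and for the transcription factors 2.74 points, against 2.81 points over all members. None of the 10 lists held a called transcript.

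The retained-intron transcripts with the most counts had a smaller median difference than the whole class. Of the 20 with the highest counts, 13 were higher in the knockout and the median was 0.940 points, against 70.9% and 1.30 points over all 3639. At an unadjusted p under 0.05, 6 of the 20 were higher and 0 lower, where 343 and 15 of all 3639 were. Among these 20 the groups did not overlap for 4, ARGLU1-204, RPL4-205 and DDX39B-215 among them, and all 4 were higher. Over all 3639 retained-intron members the groups did not overlap for 6.38% with a higher and 0.687% with a lower share.

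ARGLU1 encodes a splicing coactivator, and its transcript that keeps the 2300-base intron shown above already holds most of its counts. ARGLU1-204 was at 90.2%, 91.0% and 89.98% in SCR1 and at 91.7% to 93.1% in the knockout, and the coding ARGLU1-203 was at 8.39% and 6.67% on average. DDX39B is a helicase of splicing and RNA export. DDX39B-215 was at 48.6%, 50.5% and 51.1% in SCR1 and at 52.8% to 56.8% in the knockout. Their edgeR adjusted p values were 0.585 (ARGLU1-204) and 0.676 (DDX39B-215), and DESeq2 gave 0.00664 and 0.0143. Both transcripts were picked with their values in view.

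MEF2C usage did not differ detectably. Of its 57 annotated transcripts, 4 are members, and all 4 encode the protein, a MADS-box transcription factor of muscle, B cells and early hematopoiesis. MEF2C-249 (chr5:88718274-88883184, minus strand) was at 27.8%, 23.9% and 24.01% in SCR1, at 32.6%, 27.2% and 26.3% with sgRNA_96 and at 30.6%, 29.1% and 31.7% with sgRNA_97. Its log2 odds ratio was 0.32 (SE 0.12, edgeR adjusted p 0.781), and the groups overlapped. MEF2C-244, with its own start site, was at 25.4% ± 2.81 in SCR1 and 24.2% ± 4.70 in the knockout. MEF2C-217 was at 24.3% and 22.4%, and MEF2C-213 at 10.5% and 10.3%.

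The optional MEF2C exons gave the same picture. Of the counts of transcripts that span its position, those with the 24-base cassette exon held 28.1% ± 1.57 (SD, n = 3) in SCR1 and 29.1% ± 4.36 (SD, n = 6) in the knockout (exact permutation test, p = 0.726). Those with the 96-base gamma segment held 48.9%, 44.8% and 44.7% in the SCR1 libraries. In the knockout they held 49.6%, 46.3% and 44.3% with sgRNA_96 and 51.3%, 52.8% and 53.3% with sgRNA_97. The difference of 3.47 points lay within the spread (exact permutation test, p = 0.179, adjusted p 0.536 over 3 exon features).

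TCF3 and HLF are the fusion partners, and the annotation holds no fusion transcript, so fusion reads could be assigned only to transcripts of these genes. TCF3-201, the leading form, was at 31.5% in SCR1 and 29.4% in the knockout, and TCF3-211 at 22.7% and 23.8%. TCF3-203 was at 8.50%, 7.75% and 10.1% in SCR1 and at 5.997% to 7.73% in the knockout (edgeR adjusted p 0.739). The 3 HLF members begin at different start sites. HLF-201, the form of 295 codons, was at 19.5%, 19.9% and 20.5% in SCR1 and at 20.9% to 24.4% in the knockout (edgeR adjusted p 0.773). HLF-208 was at 26.6% and 24.7%, and HLF-210 at 48.6% and 48.3%.

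BCL6, a repressor of the germinal center, had 402 to 1226 counts per library, and its log2 fold change in total counts was -0.62. BCL6-202 held 86.6% ± 0.777 of them in SCR1 and 83.4% ± 8.97 in the knockout. BCL6-206 was at 7.62% to 8.49% in SCR1, at 6.32% to 15.1% with sgRNA_96 and at 2.52% to 5.14% with sgRNA_97. The sgRNA_97 libraries lay below the control and the sgRNA_96 libraries on both sides of it, and the edgeR adjusted p for the knockout was 0.942.

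**Figure D4:**
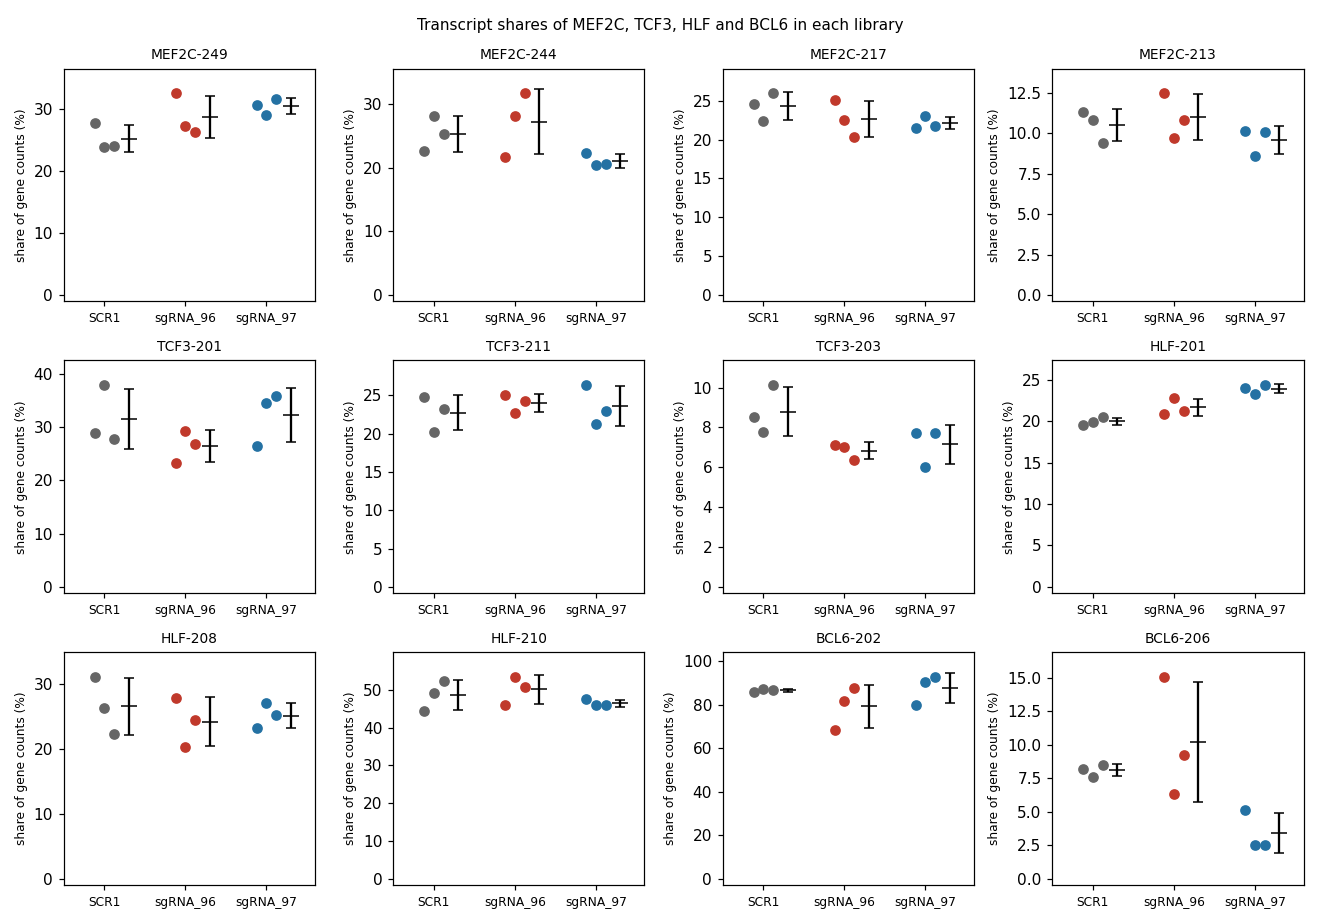
Share of 12 member transcripts in the counts of MEF2C, TCF3, HLF and BCL6 (percent, y axis from 0) for each library (points) of SCR1, sgRNA_96 and sgRNA_97, with the mean and SD of each group in black. Knockout and control points overlap in MEF2C-249 and in TCF3-201, and the HLF-201 points of the knockout libraries, 20.9% to 24.4%, lie just above those of SCR1.

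Over all members, these genes included, the groups did not overlap for 575 transcripts with a higher and 464 with a lower share in the knockout, or 2.24% and 1.8% of all members. Transcripts of RPS24, RUNX1, ZNF106, BLNK, HGS and some splicing regulators are described next. They were chosen among those without overlap, or as partners of these in the same gene, after their values were seen. None of them passed the edgeR test.

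RPS24 had 28187 to 50967 counts per library. RPS24-214 (chr10:78033760-78040716, plus strand), which skips the 22-base exon shown above, was at 25.0%, 28.3% and 27.7% in SCR1. It was at 19.1%, 17.8% and 18.8% with sgRNA_96 and 18.4%, 19.1% and 16.4% with sgRNA_97. RPS24-202, which includes the exon and stops there, was at 57.8% ± 0.752 in SCR1 and 65.3% ± 1.17 in the knockout. Skipping the exon gives a protein of 133 codons in place of 130. Over all RPS24 transcripts that bear on it, the exon was included in 63.7%, 62.3% and 62.8% of the counts in SCR1 and in 70.3% to 72.9% in the knockout. The edgeR adjusted p was 0.144 for RPS24-214 and 0.195 for RPS24-202, and DESeq2 gave 9.25e-14 and 3.10e-13. Without SCR1 replicate 1 RPS24-214 had an edgeR adjusted p of 0.0278.

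RUNX1, a transcription factor of definitive hematopoiesis, is transcribed from a distal and a proximal promoter. RUNX1-202 (chr21:34787801-34888690, minus strand), the proximal form of 453 codons, was at 59.8%, 61.1% and 61.2% in SCR1. It was at 44.7%, 49.1% and 52.8% with sgRNA_96 and at 47.5%, 51.8% and 45.1% with sgRNA_97. RUNX1-207, the distal form of 480 codons, was at 32.8% ± 2.66 in SCR1 and 44.6% ± 4.81 in the knockout. Summed by start site, the proximal group went from 61.0% to 49.2% and the distal group from 36.7% to 48.9% (edgeR adjusted p 0.298 and 0.293). Total RUNX1 counts fell by 0.37 on the log2 scale (edgeR adjusted p 0.000182).

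ZNF106 showed a like exchange between start sites. ZNF106-201 was at 14.96%, 10.96% and 10.8% in SCR1 and at 21.0% to 35.4% in the knockout, and ZNF106-202, from the upstream start site, was at 83.7% and 69.2% on average. BLNK, an adaptor of the B-cell receptor, had BLNK-215 at 11.2%, 8.56% and 11.3% in SCR1 and at 16.9% to 22.1% in the knockout. HGS, a sorting protein of endosomes, had HGS-226 at 6.11%, 6.33% and 6.43% against 10.3% to 14.1%. The edgeR adjusted p values were 0.472 for ZNF106-201, 0.298 for BLNK-215 and 0.195 for HGS-226.

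Among splicing regulators, the following transcripts moved in share. Shares within a gene sum to a fixed total, so a rise of 1 transcript must be met by a fall elsewhere. In HNRNPDL, HNRNPDL-204 went from 33.1% to 42.1% and HNRNPDL-206 from 42.8% to 34.4%, and both encode 301 codons. In SRSF7, the coding SRSF7-202 went from 33.4% to 27.0% and SRSF7-208, of the nonsense-mediated decay class, from 30.2% to 36.3%. In TIAL1 a transcript of that class moved the other way, since TIAL1-213 was at 22.3%, 24.2% and 24.7% in SCR1 and at 15.5% to 17.2% in the knockout. LUC7L3-201 went from 23.2% to 17.1%. The edgeR adjusted p values of these transcripts were 0.366 to 0.575, and in each of them the groups did not overlap.

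**Figure D5:**
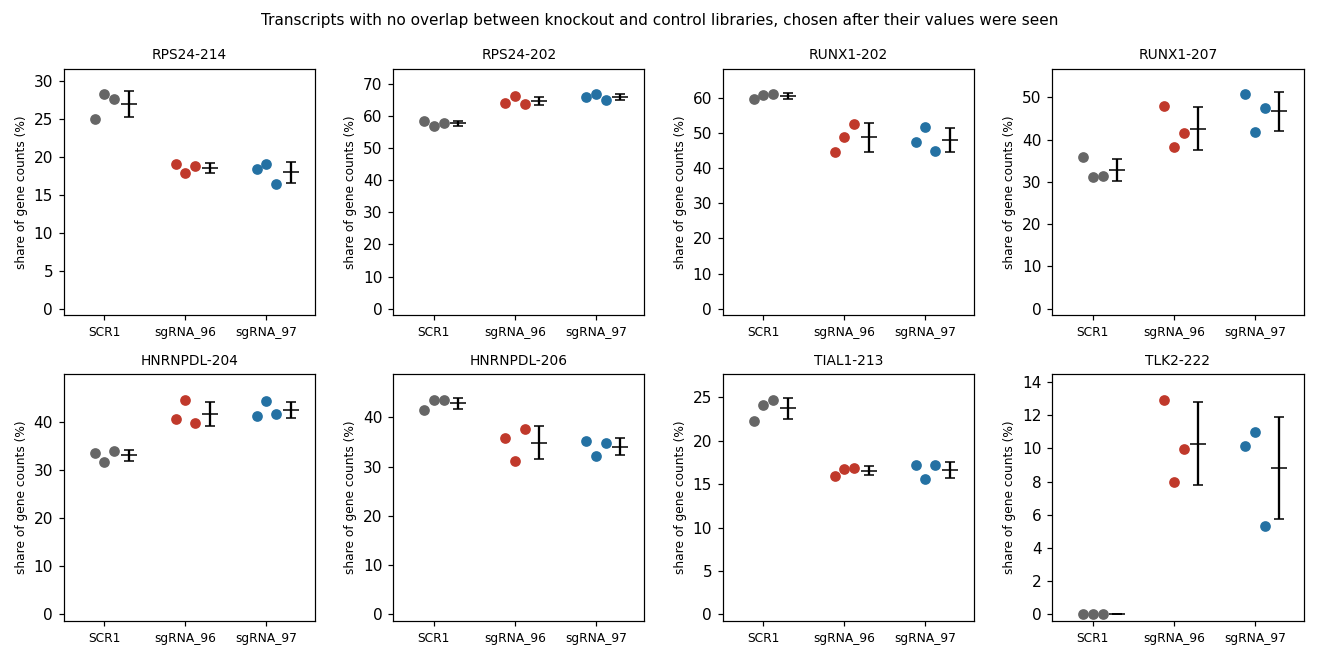
Share of 8 transcripts, chosen after their values were seen, in the counts of RPS24, RUNX1, HNRNPDL, TIAL1 and TLK2 (percent, y axis from 0) for each library (points) of SCR1, sgRNA_96 and sgRNA_97, with the mean and SD of each group in black. RPS24-214 lies at 25.0% to 28.3% in SCR1 and at 16.4% to 19.1% in the knockout, and TLK2-222 lies at 0 in SCR1.

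Usage can also be read per start site, end or coding sequence, which sums transcripts that share reads. Of 14176 start-site groups, 14500 end groups and 20705 coding-sequence groups, none was called by edgeR in the knockout, and 7.21%, 7.15% and 7.45% had an unadjusted p under 0.05. The median SD within groups was 4.78, 3.96 and 4.87 points, and the median absolute difference between the groups was 2.68, 2.21 and 2.73 points.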

How the data were processed

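RNA from 9 HAL-01 libraries was sequenced by the authors on an Illumina NovaSeq as paired reads. The authors aligned trimmed reads to hg38 (GRCh38) with STAR, quantified them with Salmon 1.10.1 in the nf-core pipeline, and deposited tables of estimated counts per gene and per transcript. They also deposited TPM values, which are scaled for transcript length and library size. Paired-end reads shared by overlapping transcripts are divided by Salmon's model, so a transcript count is an estimate, and its uncertainty is not in the tables used here. All 252835 transcript IDs matched GENCODE 44, which gave names, classes, exons and coordinates.

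Estimated counts were rounded to whole numbers. Shares are percentages of a gene's estimated counts in a library. For each member, counts of the transcript and of the rest of its gene were fitted in edgeR 4.0.16 (quasi-likelihood, a term per library and the transcript by group interaction, run in R 4.3.3), and p-values were adjusted by Benjamini and Hochberg's method across the 25709 members and a threshold of 0.05. The 6 knockout libraries formed 1 group, and both guides were separate groups of 3 libraries in a further fit. DESeq2 1.42.0, limma 3.58.1 (on log ratios, TPM pseudocounts 0.1 and 1) and edgeR's diffSpliceDGE were alternatives. Class shares, mean length and exon features were compared by exact two-sided permutation over the libraries. The fit was tested on simulated data.

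Depth was 15212462 to 29777361 estimated counts per library. The named genes were MEF2C, TCF3, HLF and BCL6, then up to 20 transcripts called in the knockout and with each guide, at no overlap, and up to 3 called genes per list. Only the 4 genes met this rule. Further genes and transcripts, those of the splicing lists among them, were picked with their values in view. The members and lists were chosen with earlier results of these data known. Results for some genes and sequences are not reported here.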

Additional observations from a re-analysis of the deposited data

Results flagged for a closer look

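In 45 groups of 6 knockout libraries examined for a library standing apart, 1 did so, by Dixon's ratio. The share of TCF3-202 in TCF3 counts was 8.99% in sgRNA_96 replicate 1 and 4.22% to 5.29% in the other 5 knockout libraries, a ratio of 0.776 against a critical value of 0.625 for 6 samples. Chance alone gives such a mark in about 1 in 20 groups.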

How the results depend on the processing

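Calls on single transcripts depended on the test. The knockout count of 1 became 550 in DESeq2, 11 in diffSpliceDGE, 9 with the TPM log ratio (pseudocount 0.1), 9 with a count log ratio in limma (chosen after seeing the data), and 0 with the replicate block, with a minimum share of 10% and with a difference of at least 10 points. It was 0 by start site, end, coding sequence or class, also chosen after seeing the data. DESeq2 gave 429 for sgRNA_96, 529 for sgRNA_97 and 315 between guides, and the TPM log ratio 11, 11 and 17. For sgRNA_97, pseudocount 1 and the 10% minimum each gave 1. The cause was not tested. Without 1 library the counts were 0 to 20 for the knockout (20 without SCR1 replicate 1, 9 without SCR1 replicate 4, 4 without SCR1 replicate 3), 0 to 6 for sgRNA_96, 0 to 11 for sgRNA_97 and 0 to 15 between guides. Single-transcript deviations of same-numbered libraries correlated at -0.0105 to 0.0294, and the block changed no other call. The protein-coding class share, however, ranked replicate 1 above 4 and 4 above 3 in each group. Whether the numbers pair samples is therefore not settled, and the permutation tests used no block.

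The retained-intron difference was 1.01 to 1.18 points and the protein-coding difference -1.62 to -1.39 points without 1 library. Without an SCR1 library their adjusted p was 0.0595 (exact permutation test). Their unadjusted p was then 0.0357, the smallest that 28 arrangements allow. The difference without a defined coding sequence was 0.110 to 0.162 points (adjusted p 0.0446 to 0.223) and 0.110 with genes weighted equally. The nonsense-mediated decay difference was 0.00783 to 0.0221, but -0.0138 with genes weighted equally and -0.0379 from TPM. All other classes gave 0.244 to 0.284, but -0.0111 with genes weighted equally. Length differed by 17.6 to 27.6 bases.

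Of 455 alternative values of 35 other named transcripts, 437 kept direction. Log2 odds ratios that turned were, in diffSpliceDGE, BCL6-202 at 0.0166 and TCF3-202 at 0.0183, and from TPM MEF2C-213 at 0.0408, HLF-210 at 0.0538, TCF3-211 at -0.0149 and TCF3-214 at -0.00551. Without 1 library BCL6-202 ran from -0.44 to 0.0783, MEF2C-244 from -0.22 to 0.00345, MEF2C-213 from -0.13 to 0.0226, HLF-208 from -0.30 to 0.0256, HLF-210 from -0.14 to 0.0913, TCF3-201 from -0.28 to 0.0615, TCF3-211 from -0.0162 to 0.17 and TCF3-202 from -0.25 to 0.0782. The MEF2C cassette exon ran from -0.0354 to 2.12 points.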

Other observations

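Retained-intron values of PTPRC, EZH2 and TBCD, already counted in the class comparisons above, are given here by gene. PTPRC, the CD45 phosphatase of leukocytes, had 650 counts over all libraries, and its retained-intron share was 62.7% ± 30.2 in SCR1 and 2.71% ± 5.10 in the knockout. EZH2, the methyltransferase of the Polycomb complex, had EZH2-220, a retained-intron transcript, at 4.02%, 4.52% and 4.70% in SCR1 and at 6.42% to 8.84% in the knockout (edgeR adjusted p 0.366). TBCD, a tubulin chaperone, had TBCD-222 of the same class at 12.9%, 14.8% and 14.9% against 18.5% to 21.5% (edgeR adjusted p 0.366). These were chosen after their values were seen.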
